A study of Ovis aries with 15 samples.

Results

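The respiratory chain genes of the sheep mammary gland were followed from late pregnancy to lactation. The members were the rows of the deposited table whose symbol starts with NDUF, UQCR, COX and a digit, or ATP5, or is SDHA, SDHB, SDHC or SDHD, together with ND1, ND2, ND3, ND4, ND4L, ND5, ND6, CYTB, ATP6 and ATP8. This rule found 80 of 24691 features, and it used symbols, not measured values. Of the 80, 13 are genes of the mitochondrial genome and 67 are nuclear. They hold 68 subunits of complexes I to V, 9 assembly factors and 3 related genes (NDUFA4L2, ATP5S and ATP5SL). Complex I has 50 members, complex II 4, complex III 2, complex IV 8 and complex V 16. The count for complex V includes ATP5S and ATP5SL, which were placed there by symbol and are not subunits of the enzyme. Complexes III and IV are thinly covered, since UQCRH is the single nuclear member of complex III and COX5A and NDUFA4 are the nuclear subunits of complex IV. Other subunits of these complexes were not analysed here.

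RNA-seq was made from needle biopsies of mammary parenchyma of Romney ewes, with 9 libraries of late pregnancy (day 135 of gestation, SD 2.4) and 6 of lactation (day 15 after birth, SD 1.27). Each library is a pool of RNA from several ewes, 3 for late pregnancy and, for lactation, 2 by the labels or 3 by the study's methods. The ewes themselves were fed alike at pasture. Their dams had been given a sub-maintenance (LM), maintenance (MM) or ad libitum (HM) pasture allowance from day 21 to day 50 of gestation and maintenance afterwards, to day 140, and each of these 3 groups has 3 late pregnancy pools and 2 lactation pools. Ewes were sampled in both states, and the labels do not tie a pool of one state to a pool of the other, so p-values measure the spread between pools.

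The respiratory chain carries electrons from NADH (complex I) and succinate (complex II) through complex III to oxygen at complex IV, and complexes I, III and IV pump protons across the inner mitochondrial membrane. Complex V, the ATP synthase, uses the returning protons to make ATP. Most subunits are encoded in the nucleus and imported, while a few hydrophobic core subunits of complexes I, III, IV and V are transcribed inside the organelle as parts of long shared transcripts, and both sets must be joined with the help of assembly factors. Secretory cells of the mammary gland gain many mitochondria around the onset of milk production.

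Libraries held 6471237 to 16898986 exon reads, counting whole genes where no transcript is annotated, in late pregnancy and 9014506 to 24001031 in lactation. In lactation 7 milk protein genes took 71.3 to 75.8% of those reads, against 13.7 to 23.4% in late pregnancy, so levels are given as scaled RPKM, that is reads per kilobase and per 1000000 reads of the library size after TMM scaling (trimmed mean of M-values). The first lactation pool of the HM group stood apart, with 87.1% of its gene reads on exons against 93.5 to 94.3% in the other lactation pools, and without it the counts of members called higher and lower below were the same. All 6 markers of luminal epithelium were measured, and 4 were called higher. Their summed level was 968 to 1193 in late pregnancy and 1607 to 1777 in lactation. In late pregnancy KRT19 and ELF5 had mean levels of 456 and 431, EPCAM 136, and KRT8, KRT18 and CDH1 only 21.9, 10.4 and 32.8. The sums were 238 to 264 in late pregnancy and 193 to 283 in lactation for 5 myoepithelial markers (1 higher, 2 lower), 133 to 222 in late pregnancy and 96.1 to 155 in lactation for 4 fibroblast markers (3 lower) and 42.1 to 59.0 in late pregnancy and 24.1 to 35.4 in lactation for 4 endothelial markers (4 lower). For 5 T cell markers they were 27.0 to 43.4 in late pregnancy and 8.95 to 13.5 in lactation, all 5 lower. For 6 adipocyte markers the sums were 537 to 1069 in late pregnancy and 1456 to 1812 in lactation. Of these, FABP4 had mean levels of 806 in late pregnancy and 834 in lactation and was not called. LPL, which secretory cells also express, was the 1 of 4 tested that was called, and PLIN1 and LEP had mean levels of at most 0.471. CIDEA was the 1 brown fat marker measured, since UCP1 was not in the table. It was at 29.1 to 59.9 in late pregnancy and 595 to 784 in lactation. This 1 gene does not identify brown fat, and the cell type behind its rise was not tested. Markers called higher and lower were 1 and 2 of 4 for macrophages, 1 and 2 of 5 for pericytes and smooth muscle, and 1 of 2 was lower for B and plasma cells. For 3 skeletal muscle markers, whose tissue is rich in respiratory chain transcripts, the sum was 0.315 to 1.91 in late pregnancy and 0.217 to 1.06 in lactation. In tissue of mixed cells, fewer cells of a type and less RNA per cell cannot be told apart, and the part of these shifts in the results that follow was not tested.

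Between the states, 79 members could be tested and 48 were called with the edgeR quasi-likelihood test at an adjusted p under 0.05, 35 higher and 13 lower in lactation. Over all 13345 tested genes 68.4% were called (33.1% higher and 35.2% lower), so the 60.8% of members called lies below the share of the whole table. Their changes were small: 1 member (NDUFA5) was called and more than 2-fold higher and 2 (ATP5G2 and NDUFA4L2) more than 2-fold lower, where 22.1% of all genes were called and changed by more than 2-fold. The 9 and 6 libraries did not overlap for 28 members, 23 of them higher in lactation, against 40.2% of all genes (20.2% above and 20.0% below). The median log2 change was 0.15 for the members and -0.03 for all genes. It was 0.71 for the mitochondrial genes, 0.12 for the nuclear subunits and -0.02 for the assembly factors. No test of the difference between such sets was made. Column names carry 1 of the 2 lanes on which each library was run. With only the libraries whose column name gives lane 7, 24 members were called higher and 11 lower. With those whose name gives lane 8, which hold all LM pools, the counts were 33 and 7. Since each library was run on 2 lanes, these subsets do not separate the lanes.

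**Figure D1:**
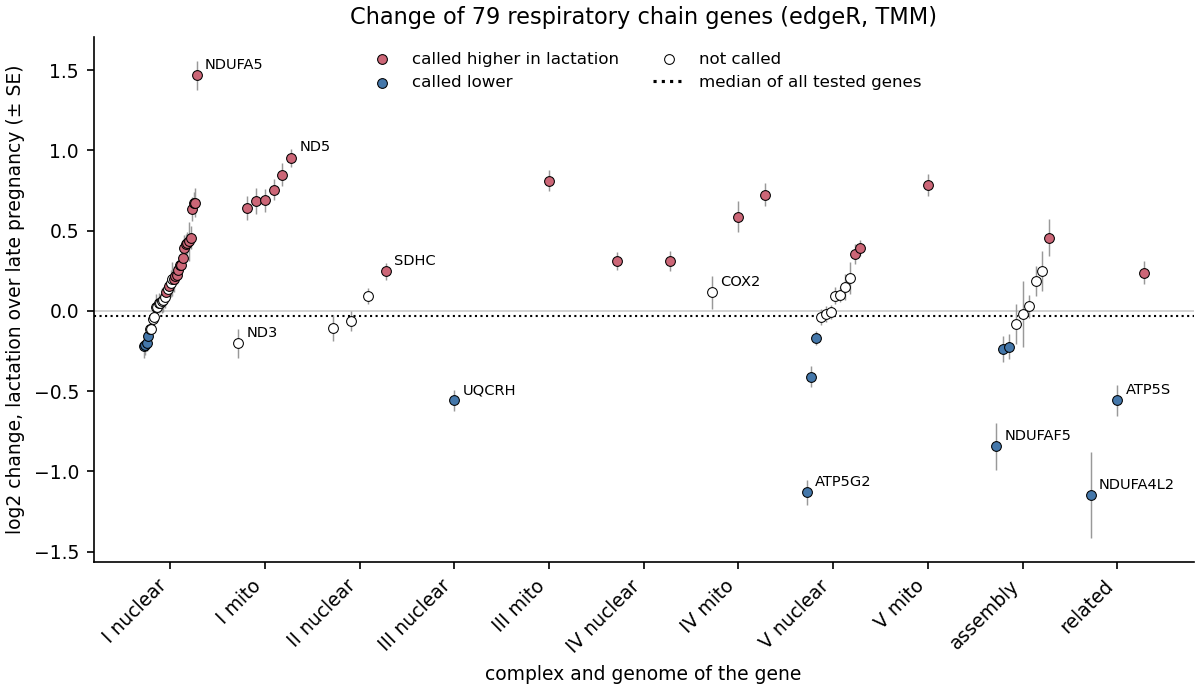
Log2 change (lactation over late pregnancy, edgeR with TMM scaling) of the 79 tested members, 1 point per gene with its standard error, grouped by complex and genome. Filled points were called at an adjusted p under 0.05 (red higher, blue lower), open points were not, and the dotted line is the median of all tested genes. Mitochondrial genes other than ND3 and COX2 lie between 0.59 and 0.95, above most nuclear genes, and with scaling to library size alone every one of the 79 points falls below 0.

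Which members count as higher depends on the scaling between libraries. With library size alone all 79 members were called lower and the median of all genes moved to -1.94, so higher and lower are used here for the TMM scale, on which that median is near 0. With upper quartile scaling 25 members were called higher and 24 lower, and with limma on the authors' quantile-normalized RPKM 20 and 34. Of the 48 members called, 38 kept call and sign with upper quartile scaling and 32 on quantile-normalized values, where 8 changed sign. TMM, library size and the upper quartile move all genes of a library by 1 common factor, so the distance between the median of a set and that of all genes is fixed by construction among them. It was 0.74 for the mitochondrial genes and 0.15 for the nuclear subunits with TMM. On quantile-normalized values, which are not bound in this way, it was 0.70 and -0.07, so the sign for the nuclear subunits turned.

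**Figure D2:**
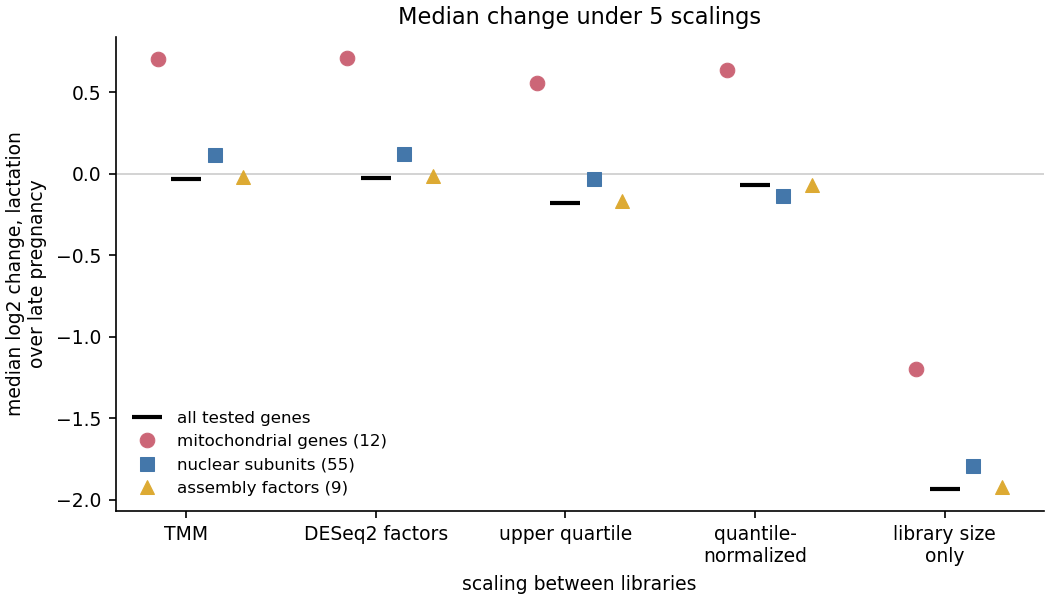
Median log2 change between the states (y axis) of all tested genes (short black lines) and of the 12 tested mitochondrial genes, 55 nuclear subunits and 9 assembly factors (symbols) under 5 ways of scaling the libraries (x axis). The symbols for mitochondrial genes stand above the line for all genes under each of the 5, by 0.70 to 0.74, a distance that is fixed by construction except on quantile-normalized values, and all sets lie below 0 with library size only.

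By scaled RPKM on all reads, 10 of the 13 genes of the mitochondrial genome lay above the highest nuclear member in every library. The exceptions were ND1, COX2 and ATP8. COX1, the catalytic core of complex IV, ranked 5 among all tested genes in late pregnancy and 8 in lactation. Of the 12 tested, 10 were called higher, where 33.1% of all tested genes were, and ND3 and COX2 were not called. The same 10 had every lactation library above every late pregnancy library, which held for 20.2% of all tested genes. All 12 were called lower with library size alone, and COX1 was lower on quantile-normalized values.

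ND1 to ND6 and ND4L form the proton-pumping membrane arm of complex I. The scaled RPKM of ND5 was between 658 and 774 (median 722) in late pregnancy and between 1273 and 1509.6 (median 1370.4) in lactation. The libraries did not overlap, and ND5 had the largest change of the mitochondrial genes, 0.95 ± 0.06 (adjusted p = 1.08e-11) on the log2 scale. For ND6 it was between 752 and 1035 (median 796) in late pregnancy and between 1374 and 1697 (median 1493) in lactation, with a change of 0.85 ± 0.07 (adjusted p = 2.11e-09). ND1 had between 219 and 300.1 (median 261) in late pregnancy and between 391 and 472 (median 444) in lactation, with a change of 0.75 ± 0.07 (adjusted p = 3.19e-09). ND4, the complex I gene of the highest level, had between 2174 and 2828 (median 2281) in late pregnancy and between 3396 and 4442 (median 3823) in lactation, with a change of 0.69 ± 0.07 (adjusted p = 4.58e-08). All 3 were again without overlap between the states. For ND4L the values were between 725 and 925 (median 824) in late pregnancy and between 1113 and 1621 (median 1286) in lactation and the change 0.68 ± 0.08 (adjusted p = 3.25e-07). ND2 had between 1055 and 1494 (median 1283) in late pregnancy and between 1720.2 and 2297 (median 1973) in lactation and a change of 0.64 ± 0.08 (adjusted p = 3.05e-07). Both rose beyond the spread of the libraries. ND3 stood apart from these. Its values were between 1319 and 2169 (median 1556) in late pregnancy and between 1302 and 1578 (median 1429) in lactation. They overlapped, and the change of -0.20 ± 0.09 (adjusted p = 0.0535) did not pass the test, although DESeq2 called it lower and limma on quantile-normalized values called it higher (0.28). With the upper quartile it was called lower, at -0.35 (adjusted p = 0.00170). It was called lower as well with whole-gene reads, without the milk protein genes, without a filter and where no library had under 10 reads, at -0.22, -0.21, -0.25 and -0.29. The same held when the first LM lactation pool or the second LM, first MM or second MM late pregnancy pool was left out, at -0.23, -0.22, -0.24 and -0.24.

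CYTB, the cytochrome b core of complex III, had between 1927 and 2430.0 (median 2129) in late pregnancy and between 3352 and 4381 (median 3694) in lactation, without overlap and with a change of 0.81 ± 0.07 (adjusted p = 1.42e-09). COX1 had between 5612 and 6728 (median 5913) in late pregnancy and between 8299 and 11065 (median 9955) in lactation, with a change of 0.72 ± 0.07 (adjusted p = 2.84e-08). The states did not overlap, but on quantile-normalized RPKM the change of COX1 was -2.68, the largest turn of sign among the members on that scale. COX3, a core subunit of complex IV as well, had between 1045 and 1644 (median 1200.2) in late pregnancy and between 1682 and 2492 (median 1753) in lactation, with a change of 0.59 ± 0.10 (adjusted p = 2.11e-05) and the highest lactation value in the second MM pool. COX2, the third core subunit, had between 59.6 and 94.9 (median 77.1) in late pregnancy and between 67.9 and 102 (median 82.5) in lactation, and its libraries overlapped. Its change of 0.11 ± 0.10 (adjusted p = 0.328) did not pass the test, though it was called higher with the libraries of lane 7 alone, at 0.31 (adjusted p = 0.0412), and lay at -0.03 with those of lane 8. ATP6, which forms the proton channel of complex V with the c-ring, had between 1312 and 1815 (median 1624) in late pregnancy and between 2493 and 2878 (median 2714) in lactation, without overlap and with a change of 0.78 ± 0.07 (adjusted p = 2.59e-09). ATP8, its small partner, had 86 reads over all 15 libraries, 2 to 10 in a late pregnancy library and 2 to 11 in a lactation library. It was the member left out by the filter on low counts, and its scaled RPKM of 0.360 to 3.22 in late pregnancy and 1.89 to 9.62 in lactation overlapped.

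**Figure D3:**
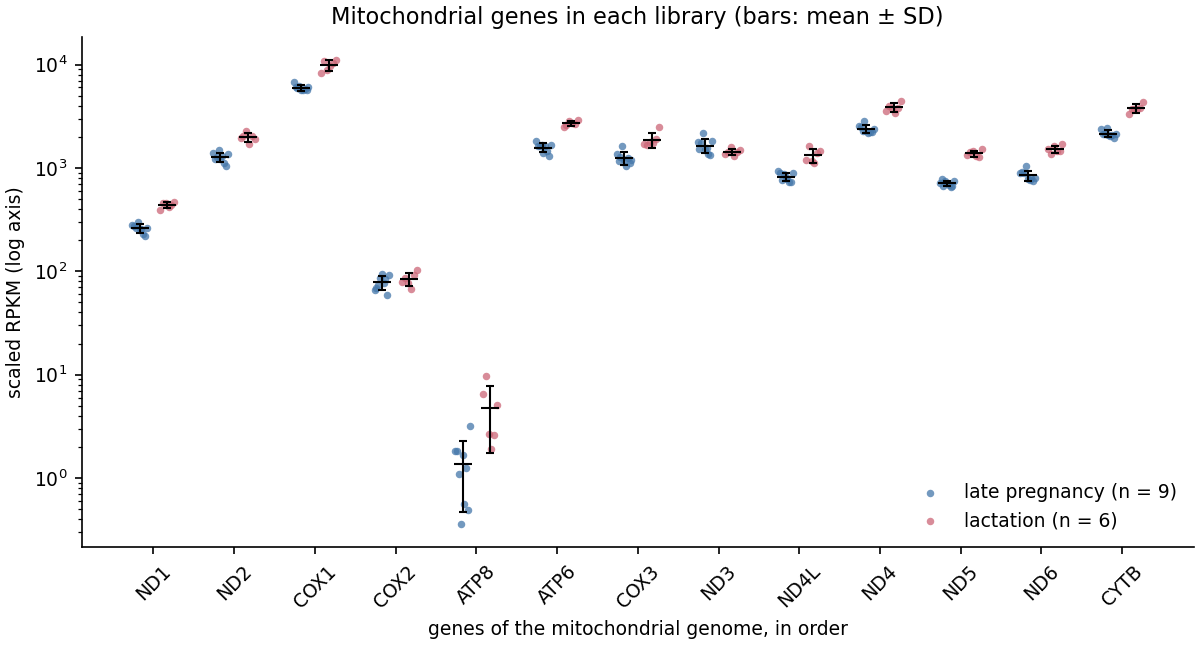
Scaled RPKM on a log axis of the 13 mitochondrial genes in each library (points), with mean and SD (bars), in their order along the genome. Lactation points lie above late pregnancy points for 10 genes, overlap for ND3, COX2 and ATP8, and the levels span from under 10 (ATP8) to 11065 (COX1). On the scale of library size alone, every one of the 12 tested genes was lower in lactation.

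The genes differ in how much of their reads had a single place in the genome. The deposited table gives for each gene all reads and those placed uniquely, and the mitochondrial genes fall into 2 stretches by this share (coordinates on the mitochondrial chromosome as deposited, assembly Oar_v3.1 by the labels). In the 7 genes from ND1 (2745 to 3699) to COX3 (8616 to 9399), ND1 had 0.271% of its reads uniquely placed, COX3 6.28%, ATP8 6.98%, COX2 9.25%, ATP6 40.8%, COX1 47.8% and ND2 58.7%. In the 6 genes from ND3 (9469 to 9814) to CYTB (14159 to 15298) every read was unique in every library. The share hardly moved between libraries: over the first stretch it was 42.8 to 45.3% in late pregnancy and 42.6 to 45% in lactation. Levels of the first stretch rest in part on reads that also match elsewhere, and are uncertain. The changes between states were close on unique reads alone, 0.72 for ND1, 0.69 for COX1, 0.59 for COX3 and 0.75 for ATP6. The value of ND1 rests on 177 unique reads over the 15 libraries (adjusted p = 0.0235 with edgeR). On unique reads COX2 changed by 0.29 (adjusted p = 0.0518). Neighbours also share bases, 40 between ATP8 and ATP6, 7 between ND4L and ND4 and 17 between ND5 and ND6, and the library kit does not mark the strand, so reads there, and those of ND6 on the opposite strand to the others, cannot be assigned with certainty. Of the 67 nuclear members, 56 had at least 99% unique reads and 4 had under 80%: NDUFA5 (44.5%), ATP5G2 (46.7%), ATP5L (66.8%) and NDUFA1 (72.3%). Counts of called members were the same on unique reads, 35 higher and 13 lower.

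**Figure D4:**
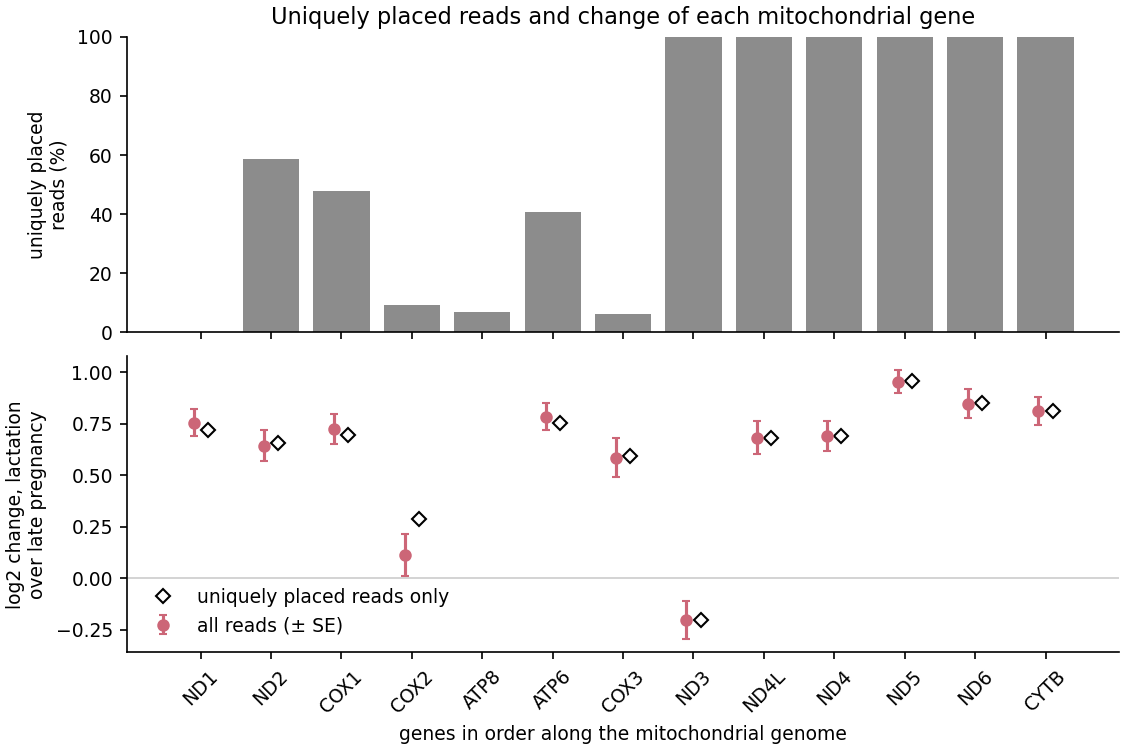
Share of uniquely placed reads over the 15 libraries (upper panel, %) and log2 change between states on all reads (circles with SE) and on unique reads alone (diamonds) for the mitochondrial genes in genome order. The share is 0.271 to 58.7% in the first 7 genes and 100% in the last 6. Circles and diamonds lie close together for all 12 tested genes except COX2 (TMM scale, and with library size alone all are below 0). Diamonds have no error bars, and that of ND1 rests on 177 reads.

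The mitochondrial genes took a smaller share of the deposited RPKM in lactation. Their shares were between 3.61 and 4.44% (median 4.0) in late pregnancy and between 1.35 and 1.58% (median 1.48) in lactation, and the libraries did not overlap. Once the 7 milk protein genes were dropped from the total the order turned, and the shares were between 5.22 and 6.08% (median 5.57) in late pregnancy and between 7.59 and 9.78% (median 8.69) in lactation. The 67 nuclear members took between 0.805 and 0.982% (median 0.893) in late pregnancy and between 0.194 and 0.228% (median 0.207) in lactation, and without the milk protein genes between 1.17 and 1.32% (median 1.21) in late pregnancy and between 1.15 and 1.27% (median 1.25) in lactation, where the states overlapped. A ratio within a library does not depend on a scaling that moves all its genes by 1 common factor. It was not taken on quantile-normalized values, which are not bound in this way. The log2 ratio of the summed mitochondrial to the summed nuclear members was between 1.99 and 2.31 (median 2.19) in late pregnancy and between 2.70 and 2.97 (median 2.77) in lactation, with no overlap. Over the 6 mitochondrial genes with unique reads alone it was between 0.83 and 1.19 (median 1.06) in late pregnancy and between 1.48 and 1.79 (median 1.59) in lactation, again apart. Within complexes, the log2 ratio of the mean mitochondrial to the mean nuclear subunit was between 4.33 and 4.75 (median 4.67) in late pregnancy and between 4.81 and 5.11 (median 4.97) in lactation for complex I. For complex V it was between 2.18 and 2.72 (median 2.53) in late pregnancy and between 3.28 and 3.48 (median 3.37) in lactation. In both the states were apart. For complex IV it was between 4.48 and 4.81 (median 4.69) in late pregnancy and between 4.80 and 5.31 (median 5.05) in lactation, where 1 end of each range touched the other and the states overlapped. These ratios within complexes use all reads. The mitochondrial genes of complexes IV and V had 6.28 to 47.8% unique reads, and ND1 and ND2 of complex I had 0.271 and 58.7%, so the levels behind the ratios are uncertain. In libraries whose column name gives lane 7 the mean log2 ratio over all members was 2.14 in late pregnancy and 2.82 in lactation, and for lane 8 the means were 2.21 and 2.80.

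Of the 36 nuclear subunits of complex I, 18 were called higher, 4 lower and 14 not. The 61.1% called compares with 68.4% of all tested genes (33.1% higher and 35.2% lower). The median log2 change was 0.16, and it was -0.09 on quantile-normalized values and 0.01 with the upper quartile. The 7 catalytic core subunits, which hold the flavin and the iron-sulfur clusters, had 1 called higher and 1 lower (28.6% called). The 29 accessory subunits had 17 and 3 (69.0% called). Mean levels ran from 11.7 (NDUFS6) to 149 scaled RPKM (NDUFS5) in late pregnancy.

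NDUFA5 (chromosome 4, 87867813 to 87912983), an accessory subunit of the arm that reaches into the matrix, changed most among them. Its scaled RPKM was between 16.9 and 25.1 (median 20.3) in late pregnancy and between 45.1 and 71.6 (median 57) in lactation. Every lactation library was above every late pregnancy library, by a log2 change of 1.47 ± 0.09 (adjusted p = 2.05e-11). On its unique reads the change was 1.51, and on quantile-normalized RPKM 1.21, though with library size alone it was -0.44. NDUFB1, an accessory subunit of the membrane arm, had between 28.2 and 35.6 (median 31.8) in late pregnancy and between 41.4 and 63.0 (median 50.7) in lactation, without overlap, and a change of 0.67 ± 0.09 (adjusted p = 1.25e-06). NDUFS1, the largest core subunit and the single core subunit called higher, had between 21.9 and 29.9 (median 24.1) in late pregnancy and between 34.5 and 44.8 (median 39.7) in lactation, also apart, with a change of 0.67 ± 0.07 (adjusted p = 4.49e-08). It and NDUFA7, at 0.64 (adjusted p = 3.19e-07), came next after NDUFA5 and NDUFB1, and were named after their values were seen. Another 4 subunits, NDUFS4, NDUFB6, NDUFB7 and NDUFA11, had no overlap and changes of 0.39 to 0.46. On the lower side, NDUFS5 had between 118 and 172 (median 153) in late pregnancy and between 112 and 138 (median 132) in lactation, and NDUFV3 between 12.4 and 16.3 (median 13.3) in late pregnancy and between 11.2 and 12.5 (median 11.6) in lactation. Both overlapped between the states and changed by -0.22 (adjusted p = 0.0113) and -0.21 (adjusted p = 0.00794), or by -0.52 and -0.32 on quantile-normalized values. NDUFA1, a small membrane arm subunit, had between 68.1 and 87.2 (median 76.4) in late pregnancy and between 84.3 and 101 (median 93.6) in lactation, with a change of 0.26 ± 0.06 (adjusted p = 7.29e-04) on all reads, 0.26 on unique reads and -0.01 on quantile-normalized values, and its libraries overlapped.

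Complex II, succinate dehydrogenase, is the one complex with nuclear subunits alone. SDHC, a membrane anchor, was the 1 of 4 called. Its values were between 48.9 and 61.4 (median 56.2) in late pregnancy and between 64.2 and 70.2 (median 65.0) in lactation, without overlap, and its change was 0.25 ± 0.05 (adjusted p = 3.06e-04), though -0.03 on quantile-normalized RPKM. SDHA (the flavoprotein), SDHB (the iron-sulfur protein) and SDHD (the other anchor) changed by -0.11, -0.06 and 0.09, none past the test.

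UQCRH, the hinge protein of complex III, which helps cytochrome c dock, went opposite to CYTB. It had between 172 and 219 (median 182) in late pregnancy and between 107 and 136 (median 129) in lactation. The libraries did not overlap, and the change was -0.56 ± 0.06 (adjusted p = 2.23e-07), lower under each scaling tried and at -0.89 on quantile-normalized values. The 2 measured members of complex III thus changed in opposite directions on the TMM scale, and the log2 ratio of CYTB to UQCRH, which needs no scaling between libraries, was between 3.41 and 3.71 (median 3.52) in late pregnancy and between 4.67 and 5.10 (median 4.89) in lactation, without overlap.

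In complex IV, COX5A, a nuclear subunit, had between 47.9 and 61.3 (median 54.8) in late pregnancy and between 62.0 and 73.8 (median 66.8) in lactation, and NDUFA4, first described in complex I and now placed in complex IV, had between 129 and 146.3 (median 139) in late pregnancy and between 147 and 185 (median 173) in lactation. Neither overlapped, and they changed by 0.31 (adjusted p = 1.91e-04) and 0.31 (adjusted p = 4.71e-05). On quantile-normalized values both changes were near 0, at 0.04 and 0.01. NDUFA4L2, a paralog of NDUFA4 known as a hypoxia target, was at a low level, with 28 to 76 reads in a late pregnancy library and 1 to 19 in a lactation library. Its scaled RPKM values were between 1.79 and 3.05 (median 2.58) in late pregnancy and between 0.192 and 1.95 (median 0.923) in lactation. They overlapped, and the change was -1.15 ± 0.27 (adjusted p = 7.73e-04). The log2 ratio of NDUFA4L2 to NDUFA4 within a library, on deposited RPKM with 0.01 added, was between -6.33 and -5.46 (median -5.76) in late pregnancy and between -9.73 and -6.50 (median -7.53) in lactation. Every lactation library was below every late pregnancy library, and the lactation values rest on as few as 1 read of NDUFA4L2. The mean difference was -1.81, and an exact two-sided permutation test with 5005 ways to divide the 15 values gave p = 0.0002, the smallest it can give. This was the 1 pair of the planned isoform pairs with both genes in the table, so adjustment over pairs left this permutation p at 0.0002.

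Of the 12 nuclear subunits of complex V, 2 were called higher and 3 lower (41.7% called, against 68.4% of all tested genes). The median log2 change was 0.04, and it was -0.11 with the upper quartile and -0.26 on quantile-normalized values. ATP5G2 (chromosome 3, 132715824 to 132719413), which encodes the c-ring protein that turns as protons pass, fell most. It had between 258 and 329 (median 283) in late pregnancy and between 100.1 and 149 (median 136) in lactation, without overlap, and a change of -1.13 ± 0.08 (adjusted p = 1.03e-10). On unique reads the change was -0.85 (adjusted p = 4.79e-10), and it was lower under each scaling tried. It was the nuclear subunit of the highest mean level of complex V in late pregnancy, 291 ± 23.9 (SD, n = 9), but not in lactation, 133 ± 17.2 (n = 6), where ATP5B was highest at 230.2 ± 3.94. This order holds on all reads alone: on unique reads the log2 ratio of ATP5G2 to ATP5B was between -0.77 and -0.05 (median -0.44) in late pregnancy and between -1.95 and -1.52 (median -1.61) in lactation, so ATP5B was higher in every library of both states. ATP5G1 encodes the same mature c-ring protein. Its values were between 56.6 and 83.8 (median 71.0) in late pregnancy and between 71.2 and 83.3 (median 79.3) in lactation, they overlapped, and its change of 0.15 ± 0.08 (adjusted p = 0.0991) did not pass the test, though it did without the first or the second MM late pregnancy pool (0.18 and 0.18). The log2 ratio of ATP5G2 to ATP5G1 was between 1.69 and 2.28 (median 2.15) in late pregnancy and between 0.43 and 0.87 (median 0.82) in lactation. On unique reads it was between 0.57 and 1.15 (median 0.99) in the former state and between -0.29 and 0.13 (median -0.09) in the latter. The states were apart on either count; the ratio was taken after the values of both genes were seen and is given without a test.

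The catalytic head of complex V was mixed. ATP5B, the beta subunit that makes ATP, had between 156 and 211 (median 175) in late pregnancy and between 225 and 236 (median 230.3) in lactation, without overlap, and a change of 0.35 ± 0.06 (adjusted p = 3.39e-05) (0.02 on quantile-normalized values). ATP5D, the delta subunit of the central stalk foot, had between 97.9 and 127 (median 114) in late pregnancy and between 76.7 and 92.7 (median 87.0) in lactation, also apart, and a change of -0.41 ± 0.06 (adjusted p = 1.09e-05), or -0.70 on quantile-normalized values. ATP5A1 and ATP5C1, the alpha and gamma subunits, changed by -0.04 and -0.01 and did not pass the test. In the stalks and membrane part, ATP5J, coupling factor 6, had between 63.5 and 75.6 (median 67.3) in late pregnancy and between 82.0 and 97.6 (median 88.8) in lactation, apart, with a change of 0.39 ± 0.05 (adjusted p = 1.15e-06). ATP5O, which ties the head to the outer stalk, had between 139 and 165 (median 148) in late pregnancy and between 127 and 136 (median 133) in lactation, apart too, and a change of -0.17 ± 0.05 (adjusted p = 0.00277), which was -0.32 with the upper quartile and -0.47 on quantile-normalized values. ATP5L, the g subunit, had between 145 and 171 (median 159.6) in late pregnancy and between 165 and 174 (median 171) in lactation, overlapping, with a change of 0.10 ± 0.05 (adjusted p = 0.0547) on all reads and 0.03 on unique reads.

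Assembly factors join the subunits without staying in the complexes. Their levels were low, with means of 4.14 (NDUFAF6) to 38.4 scaled RPKM (COX20) in late pregnancy and a median of 6.26, against a median of 42.3 for the nuclear complex I subunits. Of the 9, 1 was called higher and 3 lower (44.4% called, against 68.4% of all tested genes). None was without overlap between the states, where 40.2% of all tested genes were. NDUFAF5, a complex I assembly factor that modifies a core subunit, had between 3.50 and 5.02 (median 4.6) in late pregnancy and between 1.82 and 3.58 (median 2.26) in lactation, and changed by -0.84 ± 0.15 (adjusted p = 4.19e-05). NDUFAF7, a methyltransferase for complex I, had between 7.47 and 8.96 (median 8.05) in late pregnancy and between 5.86 and 7.91 (median 7.11) in lactation and changed by -0.24 ± 0.08 (adjusted p = 0.0147), a call that was lost without the second MM lactation pool (-0.19). COX20, the chaperone of COX2, also fell, by 0.23 on the log2 scale (adjusted p = 0.0147), and was at -0.47 on quantile-normalized values. NDUFAF1, which helps build the membrane arm, had between 3.51 and 4.83 (median 4.32) in late pregnancy and between 4.57 and 8.20 (median 5.56) in lactation and rose by 0.45 ± 0.11 (adjusted p = 0.00158); these 4 kept their sign on quantile-normalized values and with the upper quartile, while NDUFAF1 was lower with library size alone. NDUFAF2, NDUFAF3, NDUFAF4, NDUFAF6 and COX15, which makes heme a, changed by -0.08 to 0.25, none past the test. Among the related genes, ATP5S, a coupling factor, had between 8.69 and 11.0 (median 9.96) in late pregnancy and between 4.89 and 8.19 (median 6.91) in lactation, without overlap, and a change of -0.56 ± 0.10 (adjusted p = 3.61e-05). ATP5SL changed by 0.24 (adjusted p = 0.00696).

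Reads on introns give a second readout, which includes unspliced RNA, for genes with an annotated transcript. Reads on introns were tested for 61 nuclear members, which held 167 to 10498 such reads each over the 15 libraries. ATP5D, ATP5I, NDUFA4L2, NDUFAF3, NDUFB2 and NDUFB10 were not tested there. Of the 61 tested, 13 were called higher and 16 lower in lactation with edgeR, which is 47.5% called. Of all 10344 genes tested on introns 57.1% were called (32.5% higher and 24.6% lower). The median log2 change on introns was -0.09 for members and 0.07 for all genes. Both readouts called 18 members, 8 of them higher on both, 9 lower on both and 1 (NDUFB3) higher on exons and lower on introns. Without the first HM lactation pool, whose exon share was the lowest of that state, 28 members were called on introns. With library size alone 60 members were called lower on introns.

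NDUFA5, ATP5G2 and ATP5S changed the same way on both readouts. Intron reads were not limited to uniquely placed ones, and on exons NDUFA5 and ATP5G2 had only 44.5% and 46.7% unique reads. NDUFA5 had an intron change of 1.78 (adjusted p = 6.91e-07), ATP5G2 of -0.99 (adjusted p = 2.72e-06) and ATP5S of -1.35 (adjusted p = 6.30e-05). NDUFS1 was higher on both as well, at 0.62 (adjusted p = 0.00145) on introns. UQCRH was lower on introns at -0.31 (adjusted p = 0.00957) and NDUFAF5 at -0.54 (adjusted p = 0.00716). Other members, named after their values were seen, changed on introns without a called change on exons. ATP5L had 0.83 (adjusted p = 8.19e-04) on introns, ATP5F1 0.61 (adjusted p = 0.00347) and NDUFAF2 0.72 (adjusted p = 7.72e-04). On the lower side, ATP5H had -0.88 (adjusted p = 0.00140) on introns, SDHA -0.45 (adjusted p = 5.65e-04) and NDUFB8 -0.58 (adjusted p = 4.48e-05). Among members called on exons alone, 15 of 16 were higher there, such as NDUFB1, with an intron change of 0.11 (adjusted p = 0.485), and ATP5B, with -0.10 (adjusted p = 0.532). Over the 61 genes the exon and intron changes had a Pearson r of 0.62 and a Spearman rho of 0.46 across genes, which share libraries and scaling and are not independent.

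**Figure D5:**
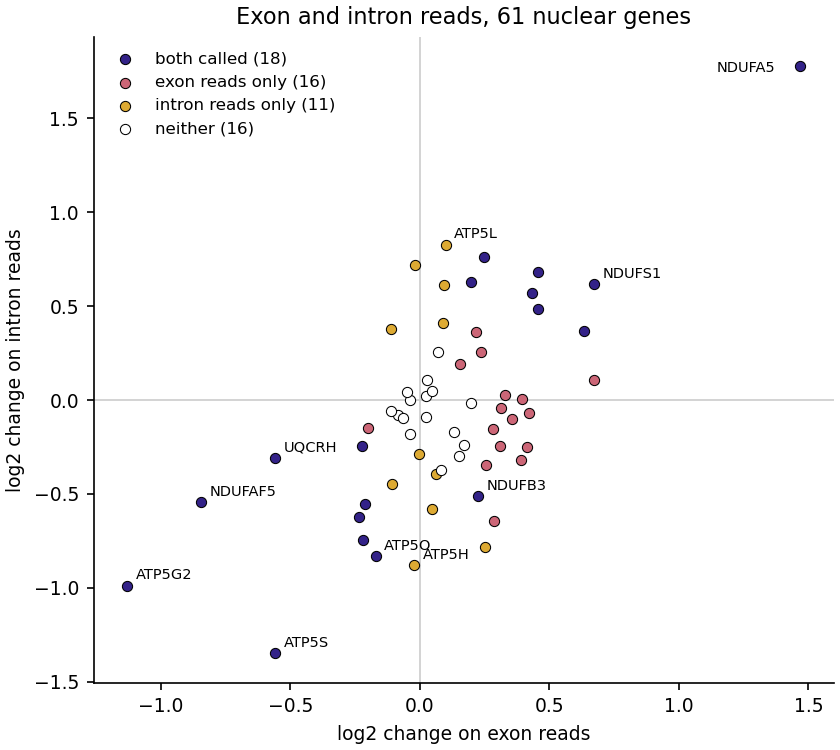
Log2 change between the states on exon reads (x axis) and on intron reads (y axis), both on the exon-read TMM scale, for the 61 nuclear members tested on both, coloured by which readout was called. NDUFA5 stands alone at the upper right (1.47 and 1.78) and ATP5G2 and ATP5S at the lower left, while most genes lie within 1 of 0 on both axes. With library size alone the exon change of every one of these genes was below 0.

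No member differed past the test with the feed of the ewes' dams. Among the 9 late pregnancy libraries, 0 of 79 members were called between the 3 dam groups by edgeR (0% of 13747 genes), and 1, COX20, passed 0.05 without adjustment. For COX20 edgeR gave an unadjusted value of 0.0318, and an adjusted p of 1.000. Of all genes 4.15% passed 0.05 in edgeR without adjustment. DESeq2 also called 0 members, had 1 under 0.05 without adjustment, and called 20 of all genes. COX1, for example, had mean scaled RPKM of 5812 ± 303 in LM, 5809.7 ± 206 in MM and 6243 ± 429 in HM (SD, n = 3). Whether the change between states differed with dam nutrition was tested over all 15 libraries. Again 0 members were called by edgeR (0% of all genes), 7 passed 0.05 without adjustment, and the smallest was COX20, with an unadjusted value of 0.0130 and an adjusted p of 0.735 from edgeR. The 7 are 8.86% of members, against 6.56% of all genes. DESeq2 called 0 members, had 5 under 0.05 without adjustment, and called 21 of all genes. The median log2 difference of the 12 mitochondrial genes was 0.63 in LM, 0.88 in MM and 0.62 in HM on the TMM scale, with 10, 11 and 11 genes above 0. Over all libraries these 12 were lower with library size alone.

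The spread between libraries of one state was read as the SD of log2 levels. The median SD of log2 levels between late pregnancy pools was 0.14 for the mitochondrial genes and 0.12 for the nuclear members, and between lactation pools 0.13 and 0.13. For all tested genes it was 0.17 and 0.21. The mitochondrial genes deviated together: in late pregnancy all 12 tested lay above their mean in the first LM pool, by 0.21 on the log2 scale on average, and all 12 below it in the second MM pool, by 0.19. In lactation 11 of 12 were above their mean in the second MM pool, by 0.16 on average, and 11 below it in the second LM pool, by 0.11. The nuclear members shifted in part together as well. In late pregnancy 50 of 67 were above their mean in the first LM pool and 58 below it in the third MM pool, by 0.07 and 0.10 on average. In lactation 48 were above it in the first LM pool and 45 below it in the first HM pool. These mean deviations are smaller than the changes of 0.59 to 0.95 of the 10 genes called between the states, but about as large as or larger than those of ND3 (-0.20) and COX2 (0.11).

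Genes around the chain, outside the rule, were read from lists by the same test. Over all tested genes 33.1% were called higher and 35.2% lower, and the list counts stand beside these shares. Log2 changes on the TMM scale are in parentheses. For transcription and replication of mitochondrial DNA, 4 of 11 tested genes were called higher and 2 lower. The largest rises were SSBP1 (0.83), the single-strand binding protein of replication, and MTERFD3 (0.40), and the largest falls POLG2 (-0.30), a subunit of the DNA polymerase, and RNASEH1 (-0.23). POLRMT, the polymerase that transcribes the mitochondrial genome, changed by -0.18 and did not pass. For stability and processing of mitochondrial RNA, 1 of 18 tested genes was called higher and 5 lower. FASTK was the one higher (0.52), and PNPT1 (-0.54), a nuclease of RNA turnover, and KIAA0391 (-0.48), which cuts tRNAs out of the long transcripts, fell most. LRPPRC, which stabilizes mitochondrial mRNAs, was lower too (-0.44).

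Among nuclear regulators of respiratory genes, 6 of 14 tested genes were called higher and 3 lower. PRKAA2 (1.25) and PPARD (1.25) rose most, and PPARGC1A (-1.80), a coactivator of mitochondrial biogenesis whose mean level was 0.206 scaled RPKM in late pregnancy, and MYC (-1.80) fell most. For electron entry outside complex I, 2 of 6 tested genes were called higher and 2 lower, with CHDH (1.74) and SQRDL (0.89) higher and DHODH (-0.58) and ETFDH (-0.19) lower. For ubiquinone synthesis, 2 of 13 tested genes were called higher and 6 lower. Higher were COQ10B (0.91) and PDSS2 (0.48), and the largest falls were ADCK3 (-0.75) and COQ2 (-0.42). Of assembly factors outside the rule, 8 of 21 tested genes were called higher and 2 lower. TMEM70, needed to build complex V (1.13), and SURF1, needed for complex IV (1.07), rose most, while FOXRED1 (-0.56) and SDHAF2 (-0.50) fell. For outer membrane channels and import, 9 of 28 tested genes were called higher and 7 lower, with TIMM8B (0.94) and TIMM23 (0.58) at the upper end and TOMM20L (-0.92) and TIMM44 (-0.46) at the lower. For dynamics and cristae, 4 of 15 tested genes were called higher and 5 lower. OPA1, which fuses inner membranes (0.52), and OMA1 (0.42) rose most, and the prohibitin PHB2 (-0.85) and MFN1 (-0.72) fell most. No list was tested against the table, where 33.1% of tested genes were called higher and 35.2% lower. With library size alone the median of all genes shifts to -1.94.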

How the data were processed

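RNA of mammary biopsies was pooled by state and by the feed of the dams, made into 15 unstranded libraries (TruSeq RNA V2) and sequenced as paired reads on 2 lanes each, which the authors combined. Per the labels and the study's methods, reads were mapped to the sheep genome (Oar 3.1 by the labels, a later version by the methods) and assigned to genes in CLC Genomics Workbench, whose version is not given in the sources used here. The deposited table gives, per gene and library, counts of all and of uniquely placed reads on exons and on the whole gene, RPKM, and RPKM after quantile normalization by the authors. It also holds the authors' own comparisons between the states (fold changes, test statistics and p-values with corrections), which were not used.

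From the counts, exon reads were taken for genes with an annotated transcript and whole-gene reads for the rest, which include all 13 mitochondrial genes. Intron reads are whole-gene reads less exon reads. edgeR 4.0.16 (R 4.3.3) was fitted to all 15 libraries with state as the term, its default filter on low counts, TMM scaling, quasi-likelihood F-tests and Benjamini-Hochberg adjustment over all tested genes, and a gene was called at an adjusted p under 0.05. Standard errors were derived from the log2 change and its F statistic. Dam nutrition was tested in the 9 late pregnancy libraries and as an interaction with state in all 15. Intron reads were tested with the library sizes and TMM factors of the exon reads. Alternatives used DESeq2 1.42.0, limma 3.58.1 on log2 of the quantile-normalized RPKM plus 0.1, and other scalings, filters and reads. Further ones used a replicate block, the libraries whose column name gives 1 lane alone, and each library left out. Scripts used Python 3.11.15 (pandas 2.3.3, scipy 1.17.1) and were tested on simulated data.

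The members, gene lists, markers and tests were chosen with earlier results of these data known. Named with values are all mitochondrial genes, up to 2 called nuclear subunits at each end of the log2 change in each complex and up to 2 called assembly factors at each end, the isoform pair, members with under 80% unique reads and members not tested. Up to 2 called genes at each end were named from each pathway list. Any other gene was named after its values were seen. Depth on exons was 6471237 to 24001031 reads per library. Each library is 1 pool, and variation between ewes within a pool was not measured.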

Additional observations from a re-analysis of the deposited data

Results flagged for a closer look

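Among 72 groups of libraries, each within one state and with those of the mitochondrial and named genes among them, 2 held a library far from the others. Chance marks about 1 in 20 groups. For COX1 in late pregnancy, the first HM pool was highest at 6728 scaled RPKM and the next at 6162. For COX3 in lactation, the second MM pool was highest at 2492 and the next at 1886. Both genes were called higher in lactation on the TMM scale with each library left out in turn.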

How the results depend on the processing

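Directions depended on the scaling. Of the 48 called members, 35 changed sign with library size alone, 1 with the upper quartile and 8 on quantile-normalized values. With library size alone, 79 members were called, 0 of them higher and 79 lower, 0 mitochondrial genes were higher, 60 members were called on introns and the members' median log2 change was -1.75. With the upper quartile 24 members were lower and the median was -0.000483. On quantile-normalized RPKM 20 were higher and 34 lower, the median was -0.0827, and the nuclear subunits lay at -0.0652 from all genes. With at least 10 reads in every library the median was 0.0728 and that distance 0.0465. The median was 0.0883 in lane 7, and in lane 8 it was 0.21, the distance 0.22 and 7 members were lower. The mitochondrial share, a mean of 4.05% of RPKM in late pregnancy and 1.48% in lactation, was 3.58 and 1.58% of reads, 3.11 and 1.01% on uniquely placed reads per kilobase, and 5.56 and 8.71% without the milk protein genes. Leaving out each library in turn gave 45 to 50 called members, 32 to 38 higher and 12 to 15 lower, 10 mitochondrial genes higher each time and 25 to 31 members called on introns.

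Members that were not called also turned, and the lists below hold called and uncalled genes. Called members outside the naming rule, such as NDUFA6 (-0.13 on quantile-normalized RPKM), turned too and are not listed. Among the mitochondrial genes and the others named by the rule, those that changed sign with the upper quartile were COX2 (-0.0368), ATP5G1 (-0.000483) and ATP5L (-0.0489), and in lane 8, COX2 (-0.0318). On quantile-normalized RPKM they were COX1 (-2.68), COX2 (-0.15), ND3 (0.28), SDHC (-0.0252), ATP5G1 (-0.10), ATP5L (-0.19) and NDUFA1 (-0.00532). With library size alone they were ND1 (-1.15), ND2 (-1.26), ND4 (-1.22), ND4L (-1.22), ND5 (-0.95), ND6 (-1.05), CYTB (-1.09), COX1 (-1.18), COX2 (-1.80), COX3 (-1.32), ATP6 (-1.12), NDUFA5 (-0.44), NDUFB1 (-1.23), NDUFA1 (-1.65), SDHC (-1.66), COX5A (-1.59), NDUFA4 (-1.60), ATP5B (-1.55), ATP5J (-1.52), ATP5G1 (-1.75), ATP5L (-1.80) and NDUFAF1 (-1.45). The cause of these turns was not tested.

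Correlations of deviations between pools of the 2 states with the same number were -0.0371 to 0.0525. Deviations were taken from the group mean, so those of the 2 lactation pools of a dam group mirror each other. These values therefore cannot show whether pools of the same number share ewes. With the replicate block 44 members were called, 31 higher and 13 lower, and 26 on introns, while 10 mitochondrial genes were higher. DESeq2 called 50 members, 35 higher and 15 lower. Few reads limit NDUFA4L2, with 1 to 19 in a lactation library, and ATP8, with 86 in all, of which 6.98% were uniquely placed. ATP6, which overlaps ATP8, had 281480 reads in the same libraries. The cause of the low count of ATP8 was not tested.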
